A study of Mus musculus with 2 samples.

Results

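The SoxE genes Sox8, Sox9 and Sox10 were followed across the cell classes of the mouse eye cup. They were picked by gene symbol, and all 3 were present among the 31053 genes of the count matrices. Each encodes a transcription factor with an HMG box, the DNA-binding domain that defines the Sox family, and the SoxE proteins bind nearly the same short motif, as monomers or as dimers. Sox10 is best known as a gene of the neural crest, where it is needed by the precursors of melanocytes and of peripheral glia. Sox9 is best known for cartilage, for progenitors and Müller glia of the retina and for the retinal pigment epithelium (RPE), and Sox8 overlaps with its relatives in glia, muscle and gonad.

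Cells came from 2 mouse libraries at e15.5 (embryonic day), 1 for each genotype, and each library held 3 pooled eye cups from which cornea, lens and optic nerve had been taken off. The control carried floxed alleles of Myrf (Myrf fl/fl), and the mutant carried the same alleles with Cre under Rx regulatory sequence (Rx>cre Myrf fl/fl). Myrf encodes a membrane-bound transcription factor, both groups share the floxed alleles, and Rx>cre acts in the early eye field, from which retina, ciliary margin and RPE arise. Transcripts were captured by their 3′ ends and counted by unique molecular identifiers (UMIs).

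The control library held 13017 barcodes and 132436812 UMIs and the mutant library 13880 barcodes and 135678970 UMIs, of which 11576 and 12623 cells were kept. The libraries shared 69 barcodes, 0.53% of the control and 0.497% of the mutant barcodes. Sox9 was the best measured member, with 9534 UMIs in control and 12088 in mutant cells, followed by Sox8 with 877 and 1247 and Sox10 with 522 and 423. Cells were clustered without the 3 members and named from marker genes, which gave 16 classes, and 9.28% of control and 9% of mutant cells stayed unnamed. The libraries differed in sex: 71.7% of control and 24.1% of mutant cells held Xist UMIs while lacking Y-linked ones, here called Xist-only cells, and the reverse held for 1 control cell and for 38.4% of the mutant cells.

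Levels are given as CPM, which scales a gene's UMIs in a class to a class total of 1000000, with an exact 95% interval. Because the libraries were not replicated, no p-value can be given, and every interval covers counting error and not the spread between animals. Erythroid-like cells, which should lack all 3 genes, served as background for free RNA: of these 484 control and 426 mutant cells, 0.413% and 0.469% held a Sox8 UMI, 1.24% and 1.17% held a Sox9 UMI, and none held a Sox10 UMI, with exact intervals that reach 0.759% and 0.862%. Their median depth was 16716 and 16766 UMIs. A small globin-rich cluster that also held markers of another class was kept out of this background, and 84.6% of its 26 control and 61.9% of its 21 mutant cells held Sox9. Globin and heme genes fill most of that depth, so the shares of cells and not the CPM are to be compared.

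The 3 genes had different homes. In both libraries Sox10 was highest in melanocyte-like and Schwann precursor-like cells, Sox9 in ciliary margin-like cells, retinal progenitor-like cells and RPE-like cells, and Sox8 in muscle-like cells. Over the 16 classes in both libraries, 32 points in all, Pearson's r between log2(CPM + 1) values was 0.19 for Sox8 and Sox9, 0.01 for Sox8 and Sox10 and 0.10 for Sox9 and Sox10. The points of a library share its depth and the classes differ in size, so these values describe the profiles and test nothing.

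**Figure D1:**
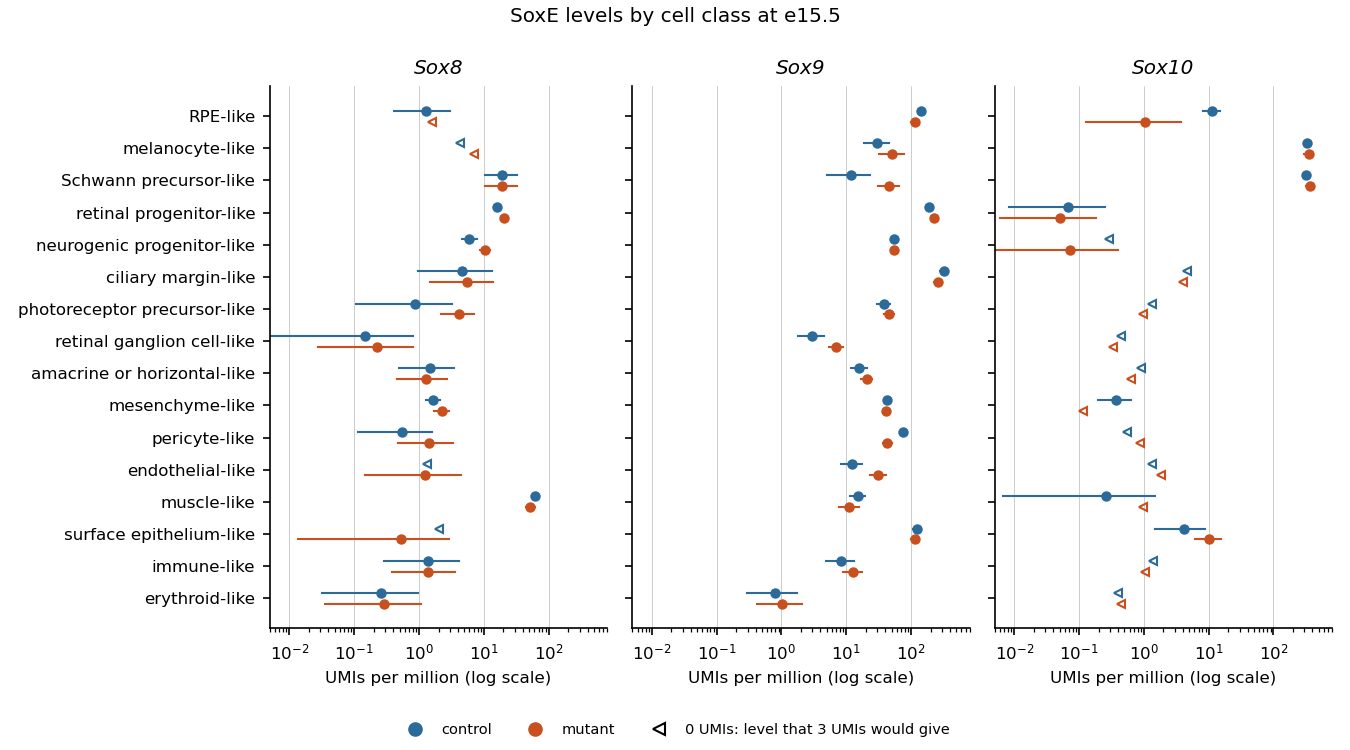
Level of Sox8, Sox9 and Sox10 in each cell class, in CPM on a log scale, for the control (blue) and mutant (orange) library. Points are levels, lines are exact 95% counting intervals, and open triangles mark the level that 3 UMIs would give in classes with 0 UMIs; Sox10 is at 322.6 to 365.7 in melanocyte-like and Schwann precursor-like cells and at 11.3 in control against 1.05 in mutant RPE-like cells.

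By position, Sox8 (ENSMUSG00000024176) lies on the reverse strand of chr17:25565892-25570686, Sox9 (ENSMUSG00000000567) on the forward strand of chr11:112782224-112787760 and Sox10 (ENSMUSG00000033006) on the reverse strand of chr15:79154908-79165240, all in GRCm38. GENCODE lists 3 transcripts for Sox8, 1 for Sox9 and 4 for Sox10. Sox8 overlaps 2810468N07Rik on the opposite strand, and neither of the others overlaps an annotated gene. In the last 500 bases of the longest transcripts, where a 3′ library reads, the longest run of bases shared by a pair was 16 for Sox8 and Sox9, 8 for Sox8 and Sox10 and 9 for Sox9 and Sox10.

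Sox10 was asked about first in the RPE, where its level was far lower in the mutant. The 378 control RPE-like cells held 44 Sox10 UMIs, in 34 cells, or 11.3 CPM (8.24 to 15.2). The 217 mutant RPE-like cells held 2 Sox10 UMIs, in 2 cells, or 1.05 CPM (0.127 to 3.79). The mutant level was 0.0925 times the control level, with an interval of 0.0109 to 0.355. Among control cells, 28 held 1 Sox10 UMI, 6 held 2 or 3 and none held more, so the signal was a few molecules at most in each cell. The classes differed in depth, with a median of 6810 UMIs per control and 3265 per mutant cell. Among cells of at least 10000 UMIs, where the medians were 18338 and 19130, Sox10 was found in 15.1% of 166 control and 2.53% of 79 mutant cells, at 10.6 and 1.24 CPM, a ratio of 0.117 (0.0137 to 0.457). After each cell was thinned to 2000 UMIs, which kept 250 of 378 control and 124 of 217 mutant cells, it was found in 4.4% of the control cells and in none of the mutant cells.

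The RPE-like class was checked against its markers. Of the 15 RPE and pigment markers, 13 were detected in control cells, all but Slc6a20a and Rpe65, and 11 in mutant cells, where Rgr and Lrat were also at 0. Summed RPE and pigment markers reached 15991 CPM in control and 16001 in mutant cells. Of 11 melanocyte markers, 5 of them pigment genes shared with RPE, 10 were detected in control RPE-like cells, where the neural crest factor Pax3 was at 0, and 11 in mutant RPE-like cells. The summed level of 10 Schwann precursor markers was 11.9 and 12.6 CPM, with Cdh19, Foxd3, Gfra3, Dhh and Mal at 0 in both libraries.

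Control RPE-like cells with a Sox10 UMI carried RPE transcripts and few of glia. All 34 had at least 2 of the 10 RPE markers that exclude the shared pigment genes, against 176 of the 344 cells without Sox10, and 2 of the 34 had 2 or more Schwann markers. The 6 melanocyte markers not shared with RPE summed to 49.8 CPM in cells with Sox10 and 51.5 CPM in cells without. Cells with Sox10 were deeper, with a median of 14769 against 5858 UMIs, so the next values are from cells of at least 10000 UMIs, 25 with and 141 without a Sox10 UMI.

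Genes compared between these deep control cells were chosen after their values were seen. Ttr, which encodes the retinol and thyroxine carrier transthyretin, stood at 8936 CPM in cells with Sox10 and 1782 in cells without (5.02 times, 4.81 to 5.23). Slc16a8, a lactate transporter of the basal RPE membrane, stood at 457 and 122.5 CPM (3.73 times, 3.12 to 4.45). The visual cycle genes Rdh5 and Rlbp1 were 2.27 times (1.9 to 2.7) and 1.8 times (1.55 to 2.09) higher in cells with Sox10. Ermn and Upk3b, reported to depend on Myrf, were 5.73 times (3.88 to 8.43) and 5.07 times (2.58 to 9.83) higher, and Myrf itself 1.74 times (1.27 to 2.36). For the pigment cell factor Mitf the ratio was 1.09 (0.879 to 1.34), for the melanosome gene Pmel 1.19 (1.15 to 1.23) and for Dct, an enzyme of melanin synthesis, 0.846 (0.788 to 0.908). Sfrp2, a secreted Wnt modulator of retinal progenitors, was 2.5 times higher with Sox10 (2.18 to 2.87), Ednrb 3.54 times (1.07 to 10.4), and Sox2 had a ratio of 0.414 (0.0824 to 1.29).

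A finer clustering divided the RPE-like cells in 2. In a cluster led by Ttr, Col8a1 and Slc16a8 (55 control and 28 mutant cells), Sox10 was at 32.1 CPM in control (27 UMIs) and 3.78 in mutant cells (2 UMIs), a ratio of 0.118 (0.0136 to 0.469). In the other cluster, led by Trpm1, Pcp4 and Mlana (322 and 188 cells), control cells held 17 UMIs (5.62 CPM) and mutant cells none. The ratio was 0.39 when the mutant is set to 3 UMIs, and its exact interval reaches higher. The mutant was thus lower in each of these clusters, and within the control library Sox10 was higher in the Ttr-led one.

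**Figure D2:**
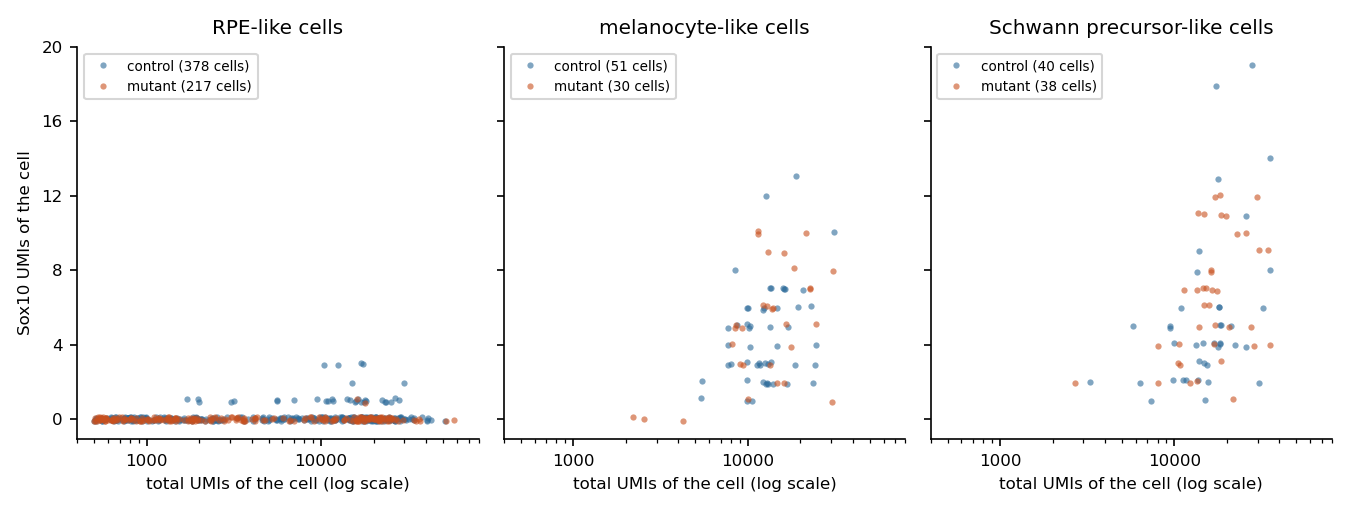
Sox10 UMIs of each cell (vertical axis, shifted slightly at random so that points can be seen) against its total UMIs (log scale) in RPE-like, melanocyte-like and Schwann precursor-like cells of the control (blue) and mutant (orange) library. No RPE-like cell exceeds 3 Sox10 UMIs and 2 mutant RPE-like cells hold any, while melanocyte-like and Schwann precursor-like cells reach 13 and 19.

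Melanocytes and Schwann cell precursors, which come from the neural crest and not from the eye field, gave the reference for Sox10 outside the RPE. In melanocyte-like cells the level was 334.9 CPM (293.2 to 380.8) in 51 control and 352.1 CPM (298.0 to 413.2) in 30 mutant cells, a ratio of 1.05 (0.85 to 1.3). Every control cell and 27 of 30 mutant cells held a Sox10 UMI, the 3 without one had a median depth of 2534 UMIs, and the median per cell was 4 UMIs in control and 5 in mutant. In Schwann precursor-like cells the level was 322.6 CPM (281.1 to 368.5) in 40 control and 365.7 CPM (321.5 to 414.4) in 38 mutant cells, a ratio of 1.13 (0.941 to 1.37), and every cell held a UMI. With cells gated by their own marker counts the melanocyte ratio was 0.811 (0.658 to 0.996), from 74 and 50 cells, on the other side of 1. In Xist-only cells the Schwann ratio was 1.62 (1.26 to 2.08), from 39 control and 12 mutant cells, and without cells holding markers of another class it was 1.45 (1.04 to 2.0), from 22 and 13.

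Melanocyte-like and Schwann precursor-like cells did not differ in Sox10 beyond counting error, at a ratio of 1.04 (0.859 to 1.26) in control and 0.963 (0.78 to 1.18) in mutant. The melanocyte level was 29.5 times that of RPE-like cells in control (21.3 to 41.8) and 335.8 times in mutant (91.3 to 2798). In control RPE-like cells came next in order, and in mutant surface epithelium-like cells did, at 9.57 times the level of RPE-like cells (2.31 to 84.7). Melanocyte-like cells supplied 44.4% of all control and 35.5% of all mutant Sox10 UMIs, Schwann precursor-like cells 41.6% and 58.2%, and RPE-like cells 8.43% and 0.473%.

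Small numbers of Sox10 UMIs were left in other classes. Surface epithelium-like cells held 6 in 3 of 82 control cells and 19 in 7 of 110 mutant cells, or 4.1 and 10 CPM (ratio 2.45, 0.94 to 7.49). All of these 10 cells also held Sox9. Their median depth was 50639 and 48193 UMIs against 15982 and 13896 in the others, and their summed epithelial markers were lower, at 1964 and 1732 CPM against 8223 and 9549. Mesenchyme-like cells held 13 UMIs in 4 control cells and none in the mutant. One cell of 43401 UMIs carried 10 of the 13, together with 124 Dct, 59 Pmel and 93 Col1a1 UMIs, that is, transcripts of pigment cell and mesenchyme at once. Retinal progenitor-like cells held 2 Sox10 UMIs in 3866 control and 2 in 5045 mutant cells, muscle-like cells 1 and 0, neurogenic progenitor-like cells 0 and 1, and ganglion cell-like, photoreceptor precursor-like, amacrine or horizontal-like, ciliary margin-like, endothelial-like, pericyte-like and immune-like cells 0 in both libraries.

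Genes that SOX10 is known to regulate were described by how many passed 2-fold. In RPE-like cells 2.52% of the 11056 genes with at least 20 UMIs were lower in the mutant by 2-fold or more and 1.47% higher, with a median log2 ratio of -0.06. Of 10 SOX10 targets of melanocytes, 6 were measured in RPE-like cells, 0 were lower and 1 was higher. The higher one was Ednrb, the endothelin receptor of neural crest cells, at 6.18 and 15.7 CPM (2.54, 1.44 to 4.55). Dct was at 2265 CPM in control and 2297 in mutant (1.01, 0.978 to 1.05), Tyr, which encodes tyrosinase, at 701.9 and 737.2 (1.05, 0.984 to 1.12), and Mitf at 224.4 and 165.2 (0.736, 0.645 to 0.838). In melanocytes and glia SOX10 acts on different genes, and of 10 glial targets 5 were measured in RPE-like cells and none passed 2-fold, with the myelin protein gene Mbp at 12.1 and 7.34 CPM (0.606, 0.308 to 1.12).

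The study also listed 43 genes as predicted SOX10 targets in RPE, a list drawn in part from these libraries and so no independent evidence of direction. Of these, 36 were measured in RPE-like cells, 7 were lower by 2-fold and 0 higher, with a median log2 ratio of -0.23. Of all 11056 genes in these cells, 2.52% were lower and 1.47% higher. The 7 were Ermn (35.8 and 3.15 CPM, ratio 0.0878), Rnf128 (0.157), Upk1b (0.189), Rdh10 (0.346), Cdr2 (0.397), Dusp4 (0.447) and Col9a3 (0.492). Rdh10, which encodes a retinol dehydrogenase, was at 245.5 CPM in control and 84.9 in mutant, with an interval of 0.291 to 0.409. Among the best measured members that did not pass, Col8a1, a collagen chain gene, was at 830.2 and 963.7 CPM (1.16, 1.1 to 1.23). In melanocyte-like cells, where 4.01% of 6530 genes were lower and 2.77% higher, 10 of the 43 were measured, with 1 lower and 3 higher. In Schwann precursor-like cells, where 2.83% of 7307 genes were lower and 3.27% higher, 9 were measured, with none past 2-fold.

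In melanocyte-like cells, where 4.01% of 6530 genes were lower and 2.77% higher by 2-fold, 8 of the 10 melanocyte targets of SOX10 were measured and 1 was past 2-fold. This was Tyrp1, a melanosomal enzyme, at 287.2 CPM in control and 706.5 in mutant (2.46, 2.05 to 2.96). Dct was at 9537 and 11581 CPM (1.21, 1.17 to 1.26), Ednrb at 1494 and 1481 (0.991, 0.897 to 1.1) and Mitf at 763.6 and 582.1 (0.762, 0.653 to 0.888). In Schwann precursor-like cells, where 2.83% of 7307 genes were lower and 3.27% higher, 8 of 10 glial targets were measured and 1, the calcium-binding protein gene S100b, was past 2-fold at 89.2 and 193.3 CPM (2.17, 1.58 to 2.99). The measured glial targets had a median log2 ratio of 0.14, against -0.01 for all genes.

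**Figure D3:**
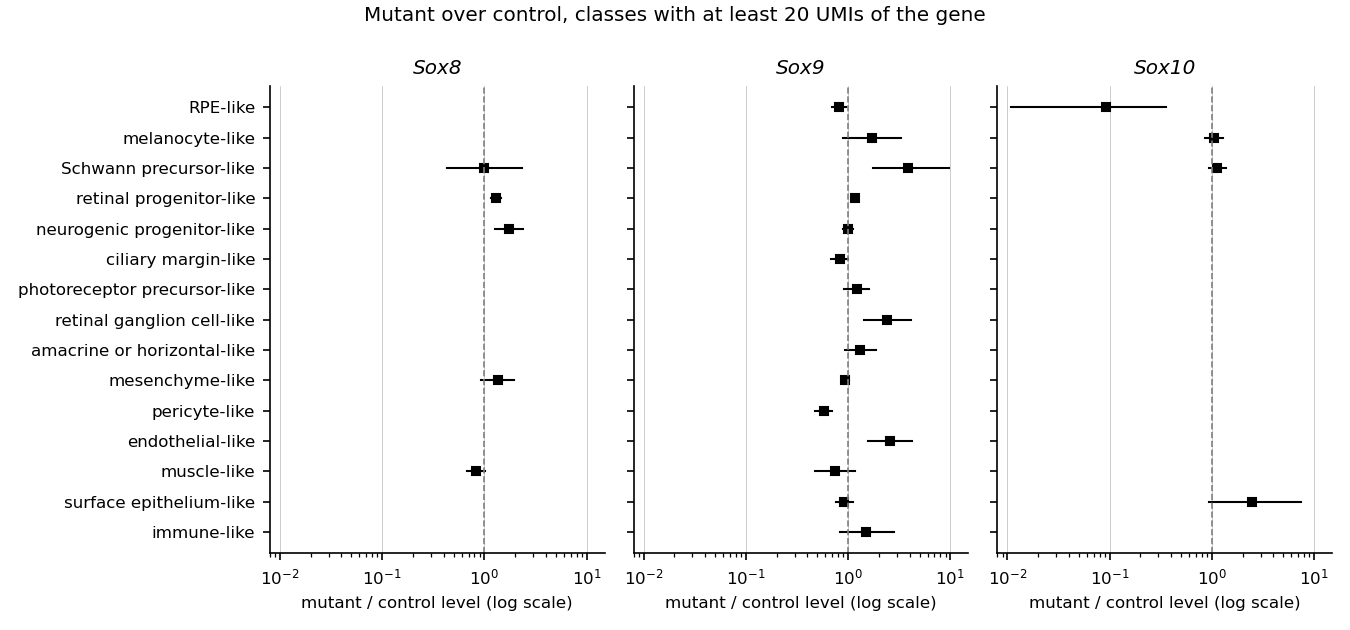
Mutant level over control level of each SoxE gene by cell class, on a log scale, for classes that held at least 20 UMIs of the gene over both libraries. Squares are ratios, lines exact 95% counting intervals and the dashed line marks 1; Sox10 in RPE-like cells (0.0925) stands apart, and Sox9 in retinal progenitor-like cells (1.16) has the narrowest interval.

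Sox9 was a broad gene of the eye cup. Its CPM in control and mutant was 318.2 and 263 in ciliary margin-like cells, 192.6 and 223.5 in retinal progenitor-like cells, 142.2 and 116.4 in RPE-like cells, and 123 and 113.5 in surface epithelium-like cells. The first 3 places were the same in both libraries, RPE-like and surface epithelium-like cells did not differ beyond counting error in either (1.16, 0.976 to 1.38, and 1.03, 0.846 to 1.24), and the other neighbours among these 4 did. In the control these were followed by pericyte-like cells at 73.9, neurogenic progenitor-like cells at 54.9, mesenchyme-like cells at 43.3 and photoreceptor precursor-like cells at 37.8, of which the last pair did not differ. The ciliary margin-like cluster (63 and 61 cells) was led by Cartpt, Pax2 and Zic1, so genes of the optic disc or stalk led it beside margin genes, and the share with a Sox9 UMI was 60.3% and 67.2%.

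In RPE-like cells the summed Sox9 level was lower in the mutant, but both the size and the direction depended on which cells were taken and how they were weighted. The class level was 142.2 CPM (130.6 to 154.6) in control and 116.4 (101.6 to 132.8) in mutant, a ratio of 0.818 (0.697 to 0.958), and 42.3% and 31.8% of cells held a UMI. In cells of at least 10000 UMIs the levels were 132.4 and 121.1 CPM, with an interval that spans 1 (0.915, 0.769 to 1.09), and the shares were 65.1% and 59.5%. Among cells of at most 2000 UMIs, 20 and 16 Sox9 UMIs gave 1.15 (0.556 to 2.33), and the mean of per-cell shares over the whole class gave 0.986. In the Ttr-led cluster the level was 312.8 CPM in control and 194.9 in mutant (0.623, 0.491 to 0.786), and in the Trpm1-led cluster 95.3 and 86.2 (0.904, 0.724 to 1.12). Thinned to 2000 UMIs per cell, 26.4% of 250 control and 12.1% of 124 mutant cells held a Sox9 UMI.

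The same deep control cells were split by Sox9. With Sox9 (108 cells) Ttr stood at 4160 CPM and without it (58 cells) at 15 CPM. Slc16a8 was at 251.7 and 5.29 CPM (47.6 times, 21.7 to 130.4), Rdh5 4.19 times higher (3.3 to 5.4), Rlbp1 2.1 times (1.8 to 2.45), the RPE and photoreceptor factor Otx2 1.95 times (1.71 to 2.23) and Myrf 2.44 times (1.76 to 3.44). The ratio was 0.99 (0.965 to 1.02) for Pmel, 0.984 (0.844 to 1.15) for Mitf and 0.823 (0.786 to 0.862) for Dct. Transcripts of retinal progenitors were also higher in cells with Sox9, at 8.38 times (6.49 to 11) for Sfrp2 and 6.01 times (2.19 to 23) for Sox2, and over all control RPE-like cells the 8 progenitor markers summed to 1143 CPM with and 560.3 without Sox9. In the mutant (47 and 32 cells) Ttr was at 5241 and 173.9 CPM, Slc16a8 4.73 times higher with Sox9 (2.96 to 7.97) and Rdh5 1.83 times (1.4 to 2.42), while the ratio of Myrf was 1.0 (0.565 to 1.82), that of Mitf 0.628 (0.492 to 0.802) and that of Dct 0.57 (0.535 to 0.607).

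Sox9 and Sox10 met in the same RPE-like cells. In control 30 of the 34 cells with Sox10 also held Sox9 (88.2%), against 130 of 344 cells without Sox10 (37.8%). At equal depth of 2000 UMIs, 8 of 66 cells with Sox9 held Sox10 (12.1%, 5.38 to 22.5) and 3 of 184 cells without Sox9 (1.63%, 0.338 to 4.69). Among deep control cells Sox9 was at 319 CPM in cells with and 103.6 in cells without Sox10 (3.08 times, 2.5 to 3.77). Split by Myrf, deep control cells with a Myrf UMI (99) had 175.1 CPM of Sox9 (157.3 to 194.5) and 31 Sox10 UMIs, and those without (67) had 67.2 CPM (53.9 to 82.8) and 4. Deep mutant cells had 125.6 and 117.7 CPM of Sox9 with and without a Myrf UMI, and 1 Sox10 UMI in each.

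For the visual cycle and RPE genes reported to have SOX9-bound regulatory DNA, 2 of 6 were measured in RPE-like cells and none passed 2-fold, where 2.52% of all 11056 genes were lower and 1.47% higher. Rlbp1, which encodes a retinaldehyde-binding protein, was at 332.9 CPM in control and 227 in mutant (0.682, 0.61 to 0.761) and Rdh5, a retinol dehydrogenase gene, at 209 and 174.6 (0.836, 0.733 to 0.95). Of 13 cartilage targets and partners of SOX9, 7 were measured and 1, Col9a3, was lower (191.7 and 94.4 CPM, 0.492, 0.416 to 0.58). Of Myrf and 4 genes reported to depend on it, all 5 were measured and 3 were lower, namely Myrf (75.5 and 29.9 CPM, 0.396, 0.293 to 0.527), Ermn and Upk3b (0.0442, 0.0011 to 0.259). Myrf is the deleted gene, and the study reported Ermn, Upk3b and Wfikkn2 in part from these libraries. This list is therefore no independent evidence of direction. Of 8 glial competence genes, Fabp7, a fatty acid-binding protein gene of glia, was lower (19.3 and 3.15 CPM, 0.163, 0.0579 to 0.371). Of 12 other Sox genes 7 were measured and Sox2, a factor of retinal progenitors, was higher (15.2 and 33.6 CPM, 2.21, 1.53 to 3.2). Beside Sox2, the 8 retinal progenitor markers summed to 920.9 CPM in control and 1416 in mutant RPE-like cells, and their part in these values was not tested.

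In the retina Sox9 was highest in progenitors, lower in neurogenic cells and lower still in ganglion and amacrine or horizontal cells. Retinal progenitor-like cells held 5642 Sox9 UMIs in 3866 control and 8885 in 5045 mutant cells, or 192.6 CPM (187.6 to 197.7) and 223.5 CPM (218.9 to 228.2), with a UMI in 51.3% and 56.1% of cells. Neurogenic progenitor-like cells were at 54.9 and 54.5 CPM, so progenitors had 3.51 times their level in control (3.22 to 3.83) and 4.1 times in mutant (3.81 to 4.43). Neurogenic cells in turn had 18.7 times the level of ganglion cell-like cells in control (12 to 30.9) and 7.82 times in mutant (6.03 to 10.3), and 3.47 and 2.62 times that of amacrine or horizontal-like cells. Against photoreceptor precursor-like cells the ratio was 1.45 (1.15 to 1.84) in control, and in mutant its interval spans 1 (1.19, 0.992 to 1.43).

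The level also differed between the 6 progenitor clusters, which are named here by their leading genes. It was 254.4 CPM in control and 289.7 in mutant in the cluster led by Fgf15 and S-phase histone genes, 225.9 and 253 in the one led by Ung and Cspg5, 186.3 and 216.9 in the one led by Cenpf and Ube2c, which are genes of G2 and mitosis, and 113.1 and 130.6 in the one led by Knstrn and Ccnb2. It was lowest in 2 shallow clusters, at 86.1 and 95.8 CPM in one led by the histone gene Hist1h2ae and by Dapl1 (median depth of 1514 UMIs) and at 98.7 and 116.1 in one led by Gm26870 and Ung (1098 UMIs), so clusters with histone genes among their leading genes held both the highest and the lowest level. Of the 5 neurogenic clusters, the one led by Gal, Dlx2 and Insm2 was at 118.8 and 107 CPM, the one led by Neurog2 and Olig2 at 62.5 and 53.1, the one led by Pkib and Dll3 at 38.6 and 42.7 and a shallow one led by Atoh7 at 30.1 and 27.9, against 23.2 and 30.9 in the one with the ganglion cell factor Pou4f2 among its leading genes. The order of the 6 progenitor clusters was the same in both libraries.

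The mutant had more Sox9 in the 4 deeper progenitor clusters, by 1.12 to 1.16 times, while in the 2 shallow ones the intervals span 1 (1.11, 0.927 to 1.34, and 1.18, 0.929 to 1.49), and in the class as a whole by 1.16 times (1.12 to 1.2), and its size differed between cells grouped by Xist and Y-linked UMIs. In Xist-only progenitor-like cells the levels were 206.2 CPM in control and 213.7 in mutant, a ratio of 1.04 whose interval spans 1 (0.986 to 1.09). Mutant cells with the reverse pattern were at 240.2 CPM, and the control had none of these in the class. Cells with neither kind of UMI were at 91.3 CPM in control (1422 cells) and 183.3 in mutant (1948 cells). The part of sex in the class difference was not tested.

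**Figure D4:**
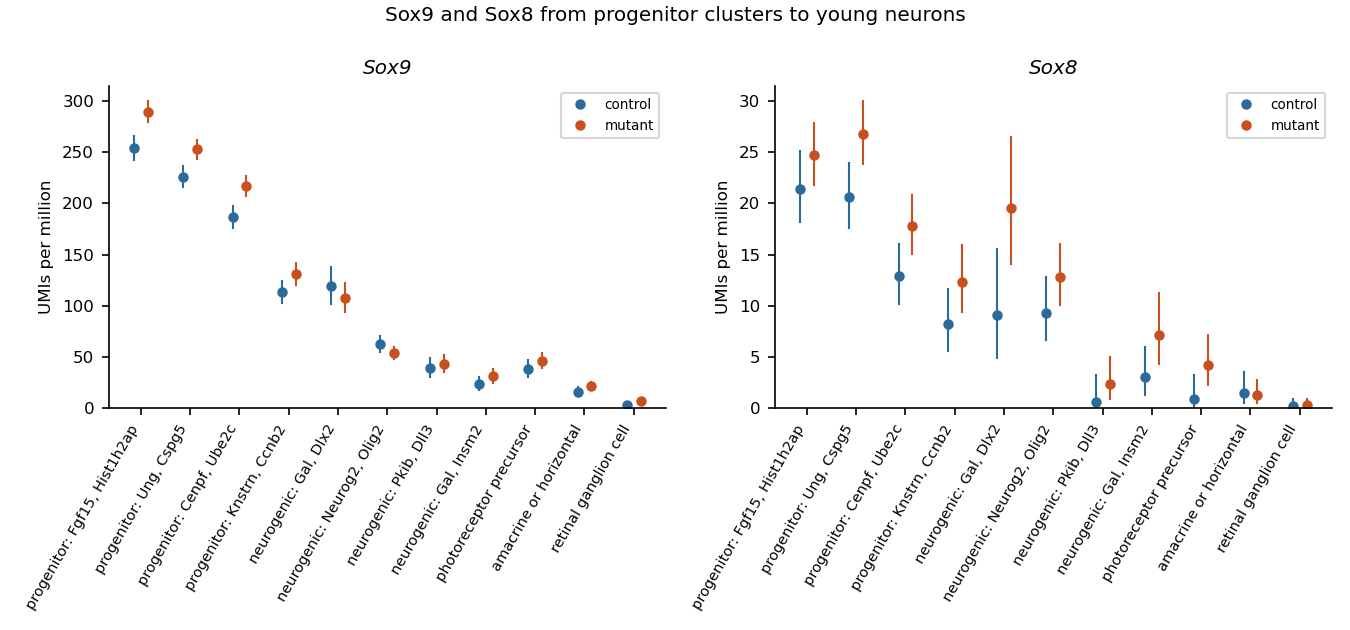
Sox9 (left) and Sox8 (right) level in CPM, control in blue and mutant in orange, in clusters of retinal progenitor-like and neurogenic progenitor-like cells, each named by its 2 leading genes, and in 3 classes of young neurons. Lines are exact 95% counting intervals; Sox9 runs from 254.4 in the Fgf15-led control cluster down to 2.93 in control ganglion cell-like cells, and Sox8 from 21.4 to 0.146, with the 3 shallow clusters (median depths of 1098 to 1514 UMIs) left out.

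No measured gene of the lists linked to SOX9 or to glial competence passed 2-fold in progenitors. Of all 14019 genes there, 0.649% were lower and 1.02% higher, shares at which lists this short could well hold none. Of the 13 cartilage targets and partners, 7 were measured and none passed, with Col9a1, a type IX collagen gene strong in progenitors, at 251.1 and 276.6 CPM (1.1, 1.07 to 1.13). All 8 glial competence genes were measured and none passed. The Notch effectors Hes1 and Hes5 were at 544.2 and 604.1 CPM (1.11, 1.09 to 1.13) and at 661.1 and 702.5 CPM (1.06, 1.04 to 1.08), and the glutamate transporter gene Slc1a3 at 172.6 and 205.5 CPM (1.19, 1.15 to 1.23). Of 12 other Sox genes 9 were measured and none passed, with Sox2 at 367.2 and 345.8 CPM (0.942, 0.918 to 0.966) and Sox11 at 410.7 and 372.4 (0.907, 0.885 to 0.929).

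In mesenchyme the Sox9 level differed between clusters. The class as a whole was at 43.3 CPM (41.2 to 45.6) in 2496 control and 40.7 CPM (38.3 to 43.3) in 1795 mutant cells, a ratio whose interval spans 1 (0.94, 0.868 to 1.02). The cluster led by Cxcl12, Crym and Akap12 had 108.6 CPM in control and 88.4 in mutant (0.813, 0.74 to 0.894). The tendon-like cluster led by Scx, Gas2 and Tnmd, where Scx encodes a tendon transcription factor, had 33.7 and 35.9 CPM (1.06, 0.848 to 1.33), and the cluster led by Mfap5 and Osr2 had 15.9 and 30.7 CPM (1.93, 1.5 to 2.48). The cluster led by Matn4 and by Kera, which encodes the corneal proteoglycan keratocan, had 6.13 and 5.96 CPM (0.973, 0.671 to 1.41), with a UMI in 5.87% and 7.3% of cells. Between the Cxcl12-led and the Mfap5-led clusters the ratios lay on opposite sides of 1 with intervals that did not reach it, and the ratio of the class was 0.776 (0.688 to 0.873) in Xist-only cells. Clustered without doublet removal it was 1.23 (1.1 to 1.36), but the class then held 764 and not 1517 control Sox9 UMIs, so it is not the same set of cells. Retinal progenitor markers in mesenchyme-like cells summed to 473.5 CPM in control and 699 in mutant, and in mutant cells with Sox9 to 1011 CPM against 580.6 without.

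Cartilage genes were measured well in mesenchyme-like cells, where 0.956% of 14540 genes were lower and 2.44% higher by 2-fold. Of 13 targets and partners of SOX9, 11 were measured, 0 were lower and 1 was higher, Hapln1, a link protein gene (2.57 and 6.27 CPM, 2.44, 1.87 to 3.19), with a median log2 ratio of 0.33 against -0.01 for all genes. Col2a1, the main collagen gene of cartilage, was at 113.2 CPM in control and 142.5 in mutant (1.26, 1.2 to 1.32), Col11a1 at 256.5 and 352 (1.37, 1.33 to 1.41), Col9a1 at 82.6 and 123.6 (1.5, 1.42 to 1.57) and Col9a3 at 56.5 and 91.8 (1.63, 1.53 to 1.73). In pericyte-like cells, which surround small vessels, Sox9 was lower in the mutant, at 73.9 and 43.1 CPM from 405 and 150 UMIs (0.583, 0.48 to 0.704), and the share of cells with a UMI was 47% and 29% at median depths of 20302 and 18900 UMIs.

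**Figure D5:**
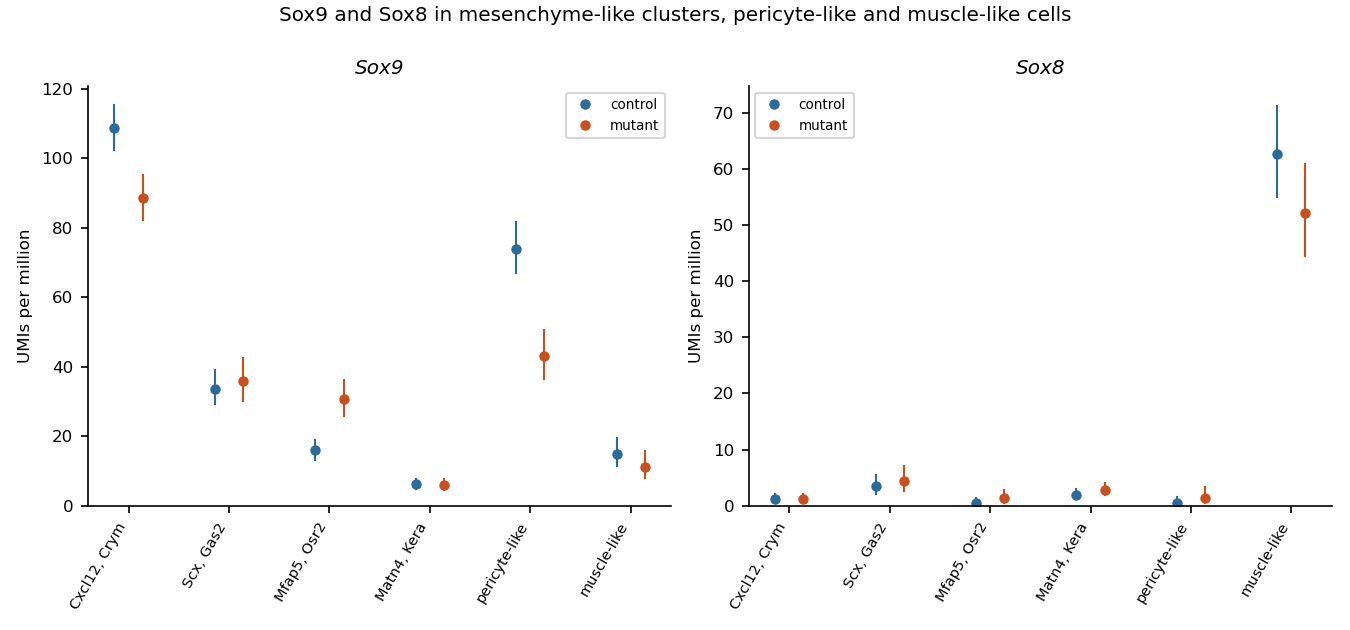
Sox9 (left) and Sox8 (right) level in CPM, control in blue and mutant in orange, in the 4 mesenchyme-like clusters, named by 2 of their leading genes, and in pericyte-like and muscle-like cells, with exact 95% counting intervals. Sox9 is highest in the Cxcl12-led cluster (108.6 and 88.4) and Sox8 in muscle-like cells (62.7 and 52.2).

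In the neural crest classes Sox9 was sparse. Melanocyte-like cells held 21 UMIs in control and 22 in mutant, or 30.3 and 51.6 CPM, with an interval that spans 1 (1.7, 0.894 to 3.26). With cells gated by their own marker counts instead of clusters, 84 and 109 UMIs gave 1.76 (1.31 to 2.37). RPE-like cells had 4.69 times this level in control (3.04 to 7.64) and 2.25 times in mutant (1.45 to 3.67). Schwann precursor-like cells held 8 UMIs in 6 of 40 control cells and 31 in 12 of 38 mutant cells, or 11.9 and 46.1 CPM (3.88, 1.74 to 9.76). Retinal progenitor transcripts moved with this. The 8 progenitor markers summed to 744.8 CPM in control and 1619 in mutant Schwann precursor-like cells, and within the mutant to 3110 CPM in cells with Sox9 and 780.6 in cells without. Fgf15 was at 541 and 18.6 CPM and Hes5 at 334.5 and 11.6 CPM in mutant cells with and without Sox9. In control cells with Sox9 (6) and without (34) the markers summed to 763.5 and 740.8 CPM. Fgf15 was at 0 in both of these groups and Hes5 at 0 and 5.39 CPM. With cells of 4 or more progenitor markers left out, a choice made after seeing the data, the Sox9 ratio was 2.57 with an interval that reaches 1 (0.987 to 7.15), and with cells holding any marker of another class left out it was 1.11 (0.23 to 4.67). In Xist-only cells it was 2.78 (0.796 to 9.14), and with the 5 cells highest in Sox9 dropped from each library it was 8.84 (1.22 to 387.3), from 1 and 9 UMIs.

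In Schwann precursor-like cells 2.83% of 7307 genes were lower and 3.27% higher by 2-fold. There 7 of 8 glial competence genes were measured, with a median log2 ratio of -0.02, and Hes5 (3 and 86 UMIs, ratio 28.7, 9.49 to 141.8) was the one past 2-fold. Of 13 cartilage genes 8 were measured and Col9a1 (3.6, 1.29 to 12.4) and Cnmd (9.25, 3.32 to 35.7) were past it. In melanocyte-like cells, where 4.01% of 6530 genes were lower and 2.77% higher, 6 glial competence genes were measured. Of these 1 was lower, the nuclear factor gene Nfib at 83.7 and 35.2 CPM (0.421, 0.221 to 0.752), and 1 higher. The higher one was Hes5 at 20.2 and 218.3 CPM (10.8, 6.13 to 20.5), which in mesenchyme-like cells, where the list's median log2 ratio was -0.10, was at 7.97 and 29.8 (3.74, 3.26 to 4.3). Progenitor markers in melanocyte-like cells summed to 304.6 and 488.2 CPM, and in erythroid-like cells, where globin and heme genes took 884494 and 899938 CPM, to 48.7 and 96.8 CPM. How far free progenitor RNA or joined cells enter the Sox9 values of these classes was not tested.

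Sox8 was highest in muscle. The 181 control and 175 mutant muscle-like cells, led by Actc1, Myog and Ttn, held 239 and 163 Sox8 UMIs, or 62.7 CPM (55 to 71.2) and 52.2 CPM (44.5 to 60.9), a ratio whose interval spans 1 (0.832, 0.678 to 1.02). A Sox8 UMI was found in 58.6% and 44% of these cells. The level was 3.93 times that of retinal progenitor-like cells in control (3.34 to 4.6) and 2.51 times in mutant (2.11 to 2.98). Control muscle-like cells with Sox8 had 1134 CPM of Myog, which encodes the differentiation factor myogenin, against 348 in cells without, 223.2 against 124.3 CPM of the determination factor Myod1, and 122.9 against 184.9 CPM of Myf5, an earlier factor of the lineage. In mutant cells these were 576.7 and 304.5 CPM for Myog, 240.9 and 61.4 for Myod1 and 100.8 and 184.9 for Myf5. Des, which encodes the muscle filament protein desmin, was at 196.3 CPM with and 172.8 without Sox8 in control and at 131.9 and 198.1 in mutant, so its order differed between libraries. Cells with Sox8 were deeper, at medians of 22781 and 22234 UMIs against 17715 and 14404.

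Next to muscle came Schwann precursors and retinal progenitors, which did not differ in Sox8 beyond counting error in either library (1.21, 0.639 to 2.09, in control). Schwann precursor-like cells held 13 UMIs in each library, 19.3 CPM in both, in 10 of 40 control and 12 of 38 mutant cells. All 3 SoxE genes were found together in 1 control and 5 mutant Schwann precursor-like cells and, outside this class, in 1 mutant progenitor-like cell. Melanocyte-like cells, the other class rich in Sox10, held no Sox8 UMI in either library, with exact intervals that reach 5.32 and 8.66 CPM. RPE-like cells held 5 UMIs in 2 control cells and none in the mutant, a difference that was not detectable at this depth.

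Retinal progenitor-like cells held 468 Sox8 UMIs in control and 826 in mutant, or 16.0 CPM (14.6 to 17.5) and 20.8 CPM (19.4 to 22.2), with a ratio of 1.3 (1.16 to 1.46). As for Sox9, the ratio was smaller in Xist-only cells, with an interval that spans 1 (1.11, 0.936 to 1.32). The share of cells with a UMI was 9.91% and 13.1%, and 2.87% and 4.27% at 2000 UMIs per cell. In the 4 deeper progenitor clusters Sox8 was at 21.4 and 24.7 CPM in the Fgf15-led cluster, 20.6 and 26.8 in the Ung-led, 12.9 and 17.8 in the Cenpf-led and 8.16 and 12.3 in the Knstrn-led cluster. In the shallow clusters it was at 6.62 and 12.5 CPM in the Hist1h2ae-led one (1.89, 1.03 to 3.64) and lower in the mutant, at 11.5 and 6.95 CPM from 15 and 10 UMIs, in the Gm26870-led one, with an interval that spans 1 (0.606, 0.243 to 1.44). Neurogenic progenitor-like cells were at 6.01 and 10.4 CPM (62 and 144 UMIs, ratio 1.73, 1.28 to 2.37), and photoreceptor precursor-like cells at 0.88 and 4.14 CPM from 2 and 13 UMIs (4.71, 1.07 to 43).

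Sox8 and Sox9 were not clearly joined cell by cell in progenitors. Unthinned, 78.3% of control progenitor-like cells with Sox8 held Sox9 against 48.3% of those without, but the former were deeper (medians of 10864 and 6683 UMIs). At 2000 UMIs per cell the shares were 34.6% (24.3 to 46) and 28.5% (26.8 to 30.2) in control, and 33.1% (26.1 to 40.8) and 31.7% (30.2 to 33.2) in mutant. In mesenchyme-like cells Sox8 was low, at 1.66 and 2.23 CPM from 58 UMIs in each library (1.35, 0.919 to 1.97), and highest in the tendon-like cluster at 3.53 and 4.42 CPM.

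The genes whose profile over the 32 points was most like that of each member were named by Pearson's r of log2(CPM + 1). For Sox10 they were Klhl30 (0.951), Gjc3 (0.943), Scrg1 (0.930), Fam178b (0.916) and Pax3 (0.912), of which Gjc3 encodes a glial gap junction protein. For Sox9 they included Stxbp6 (0.896), Zhx2 (0.877), Aldh5a1 (0.866) and Znrf3 (0.865), and for Sox8 Usp44 (0.766), Tnnt2 (0.748), Chst3 (0.731), Dtx4 (0.724) and AC133868.2 (0.697), of which Tnnt2 encodes a troponin T of cardiac and embryonic muscle. The best match was thus weaker for Sox8 than for the other members. With 10 in place of 1 added to each CPM, 1 of the 5 names for Sox8, 3 for Sox9 and 2 for Sox10 were shared.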

How the data were processed

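The deposited matrices hold UMI counts, one for every gene and barcode, which the authors made with Cell Ranger 7.1.0 against mm10 (GRCm38) per the submitters' processing notes, which also name Seurat 4.1.1. The matrix headers give software version 3.1.0. The deposited counts carry no normalization, and no column was left unmapped. From them, barcodes with at least 200 genes and at most 15% mitochondrial UMIs were kept. Scrublet's own limit marked 366 control and 0 mutant barcodes, so a score limit of 0.2, set after the scores were seen, was used for both (3.06% and 3.03% of barcodes removed). The 2000 most variable genes, less the members, list genes that are not markers, Xist, Tsix and Y-linked, mitochondrial and globin genes, left 1965 features for 30 principal components, 15 neighbours and Leiden clustering at resolution 1 (Python 3.11.15, scanpy 1.11.5, igraph 0.11.9, numpy 2.4.6, scipy 1.17.1, matplotlib 3.10.9). Of 37 clusters 32 were named from marker lists, with score limits (0.9, lead 0.2) set after the clusters were seen. Ratios carry exact conditional binomial 95% intervals, and a 0 count was set to 3 counts for the ratio itself. The intervals cover counting error only.

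No test was possible with 1 library for each genotype. Named genes are the members, list genes past 2-fold with an interval on one side of 1 among those with at least 20 UMIs, up to 4 of the highest per list and class, and the 5 most alike profiles. Genes set beside Sox8, Sox9 or Sox10 within cells and the finer clusters were chosen after their values were seen. The members and lists were chosen with earlier results of these data known. The ratio calculation was tested on simulated counts. Positions come from GENCODE for the build of the files. A few genes that the naming rule picks are not reported here.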

Additional observations from a re-analysis of the deposited data

Results flagged for a closer look

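Sox9 moved in opposite directions between cell classes under the same contrast, with counting intervals that did not reach 1. Mutant over control it was 0.818 in RPE-like and 0.583 in pericyte-like cells, and 1.16 in retinal progenitor-like, 2.38 in retinal ganglion cell-like, 2.55 in endothelial-like and 3.88 in Schwann precursor-like cells. In Xist-only progenitor-like cells the ratio was 1.04 (0.986 to 1.09), and in RPE-like cells of at least 10000 UMIs 0.915 (0.769 to 1.09), so both then reach 1. The difference between classes was not tested, since each genotype has 1 library. In ganglion cell-like, endothelial-like and Schwann precursor-like cells Sox9 rested on 20 and 62, 28 and 51, and 8 and 31 UMIs. Fgf15 was higher in cells with Sox9 than in those without, at 118.4 against 7.78 CPM in control and 342.2 against 18.8 in mutant ganglion cell-like cells, at 77.6 against 35.5 and 414.9 against 16.3 in endothelial-like cells, and at 75.7 against 18.2 and 93.5 against 33.4 in pericyte-like cells, where Sox9 was lower in the mutant. Summed progenitor markers were at 229.8 CPM in control and 371.6 in mutant ganglion cell-like cells, 744.8 and 1619 in Schwann precursor-like, 920.9 and 1416 in RPE-like, 629 and 665.4 in pericyte-like and 1152 and 1156 in endothelial-like cells. The part of progenitor RNA in the Sox9 values was not tested.

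Signal was also found in clusters that entered no class. An unnamed cluster led by Gm26870 and Aldh1a2, of median depth 876.5 UMIs, held 6 Sox10 UMIs in 4 of 544 control cells and 3 in 2 of 596 mutant cells. An unnamed globin-rich cluster (26 control and 21 mutant cells, median depth 25375 UMIs) held 8 Sox8 UMIs in control, and 74 Sox9 UMIs in control and 26 in mutant, against 2, 6 and 7 in the far larger erythroid-like class.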

How the results depend on the processing

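No paired analysis was possible because each genotype has 1 library. The libraries also differ in sex, so every ratio rests on 1 pool against another, and Sox10 in the mutant RPE rests on 2 UMIs. Over the 8 main ratios, 57 of 84 recomputed values stayed within the counting interval, 18 moved beyond it, 8 were upper bounds from a mutant count of 0 and 1 reversed, meaning that a ratio whose interval lay on one side of 1 crossed it. Sox9 in mesenchyme-like and Sox10 in melanocyte-like cells, whose intervals span 1, also crossed 1 among the moved values below. For 5 other results 43 of 44 recomputed ratios stayed, but Sox8 in melanocyte-like cells, with 0 UMIs in both libraries, gave no ratio at all. Of all 158 alternatives, 30 had too few UMIs for a value. The cause of a change was not tested.

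Sox10 in RPE-like cells was at most 0.493 with mitochondrial shares up to 5%, at most 0.55 thinned to 2000 UMIs and at most 0.432 with classes gated by markers per cell. The mutant then held no UMI, so these are bounds and do not show that the ratio moved. Sox9 in RPE-like cells reversed to 1.15 (0.556 to 2.33) with cells over 2000 UMIs removed, which takes out 79.1% and 80.6% of the barcodes, and was 0.527 thinned, 0.659 gated and 0.986 as a mean of cell shares. Gating moved Sox10 in melanocyte-like cells to 0.811 (0.658 to 0.996). Sox10 in Schwann precursor-like cells was 1.45 without cells holding markers of another class and 1.62 among cells with Xist alone.

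In retinal progenitor-like cells, removing cells over 2000 UMIs gave 1.39 for Sox9 and 1.6 for Sox8, keeping cells with Xist alone gave 1.04 and 1.11, the mean of cell shares gave 1.21 for Sox9 and thinning gave 1.55 for Sox8. Sox9 in mesenchyme-like cells was 1.23 without doublet removal, 1.11 at Leiden resolution 2, 1.06 thinned, 1.02 as a mean of cell shares and 0.776 with Xist alone. With cells over 2000 UMIs removed it was 1.39, but few cells of the class were left. At least 2000 UMIs were held by 2481 of its 2496 control and 1769 of its 1795 mutant cells. Without doublet removal and at resolution 2 the class held 764 and 437 control Sox9 UMIs instead of 1517, and at resolution 2 clusters led by Nts and by Tagln were unnamed.

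Counting genes from 50 instead of 20 UMIs cut those lower and higher by 2-fold from 279 and 163 to 82 and 64 in RPE-like cells, from 262 and 181 to 49 and 36 in melanocyte-like, from 207 and 239 to 36 and 54 in Schwann precursor-like, from 91 and 143 to 29 and 43 in progenitor-like and from 139 and 355 to 58 and 186 in mesenchyme-like cells.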
